A study of Mus musculus with 36 samples.

Results

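Livers of C57BL/6 mice 7 days after bile duct ligation (BDL7) were compared with livers of mice after sham surgery (SHAM), over every gene that gave enough signal in these animals. The comparison used 8 of the 36 libraries of the series, 4 per group. A gene entered when its normalized count reached 10 in at least 4 of the 8 libraries, which held for 11111 of the 29546 genes in the table. Surgical ligation closes the common duct, so bile cannot leave the liver, and the series describes the earlier time as acute cholestasis. The labels give the strain and the surgery but no age and no day for the sham mice. The series also has mice fed 3,5-diethoxycarbonyl-1,4-dihydrocollidine (DDC) at 0.1% wt/wt, mice given cyclosporin A in olive oil by gavage, and their controls. Of these, the mice on DDC for 7 days (DDC7), the mice on the control diet (CTLD) and the mice 28 days after ligation (BDL28), all C57BL/6 and 4 per group, served as points of comparison.

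As background, obstruction of the common bile duct raises pressure in the biliary tree and exposes hepatocytes to retained bile acids and copper, both of which normally leave in bile. Bile duct cells, the cholangiocytes, then multiply and spread into the lobule, portal fibroblasts and stellate cells lay down matrix, and monocytes and neutrophils enter from the blood. Hepatocytes, which make most plasma proteins, answer inflammatory cytokines with an acute-phase programme and lower much of their metabolic output. The label of the tissue was met by its defining genes: all 16 hepatocyte markers passed the filter, and Ttr, the plasma carrier of thyroxine and retinol, went from 11191 ± 530.2 to 4407 ± 560.2 (-1.35 ± 0.09) and stayed abundant in both groups.

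The assay reads only the 3' ends of polyadenylated transcripts, and a random tag on each molecule allows amplified copies to be recognised. The 8 libraries held 2278745 to 3064666 reads. Between 17350 and 18623 genes had a read in the ligated mice, against 16030 to 16498 in the sham mice. The first principal component carried 70.5% of the variance and separated the surgeries. No library stood on the wrong side. Levels below are normalized counts, that is reads divided by the authors' scaling factor of the library, given as mean ± SD of 4 mice. Differences are log2 differences of normalized count + 1, BDL7 minus SHAM, ± SE, from limma, and a gene rose or fell where the Benjamini-Hochberg adjusted p over all 11111 genes was under 0.05. The labels do not say how the mice were housed or operated, so p-values measure the spread between these animals.

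Ligation was followed by changes across much of the measured transcriptome. Of 11111 genes, 4828 passed the test (43.5%): 2345 rose (21.1%) and 2483 fell (22.3%). The rises were the larger in relative size. Among the rising genes 1103 (9.93%) rose by more than 1 on the log2 scale, and 132 by more than 3. Among the falling genes 414 (3.73%) fell by more than 1 and 56 by more than 3. In 4535 genes (40.8%) no ligated mouse overlapped a sham mouse, with the ligated mice higher in 19.6% of all genes and lower in 21.2%. The near balance of rises and falls rests on the authors' scaling. Scaled to equal total counts, the median of all genes moved up by 0.32, 4758 genes rose and 1044 fell, so that 82.0% of calls were rises against 48.6% with the authors' factors. Because the normalized totals were 2973792 to 3135775 in the sham mice and 2339003 to 2519262 in the ligated mice, a fall of less than about that shift is a fall relative to the authors' scale only, and families for which this matters are named below.

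The direction of change followed the level of the gene in healthy liver. Of the 477 genes that averaged at least 1000 counts in the sham mice, 70.4% fell and 6.50% rose. Of the 3428 genes at 30 to 100 counts, 13.4% fell and 19% rose. Genes under 10 counts in the sham mice rose in 74.7% of cases and fell in none, but those could pass the filter only by being high after ligation. Summed over genes, the means of falling genes decreased by 807824 counts and the rising means gained 200279. The 100 most abundant genes of a library took 28.7% to 32.3% of its counts in the sham mice and 22.4% to 24.9% in the ligated mice. The groups did not overlap in this share. In bulk tissue fewer hepatocytes and less RNA per hepatocyte cannot be told apart.

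**Figure D1:**
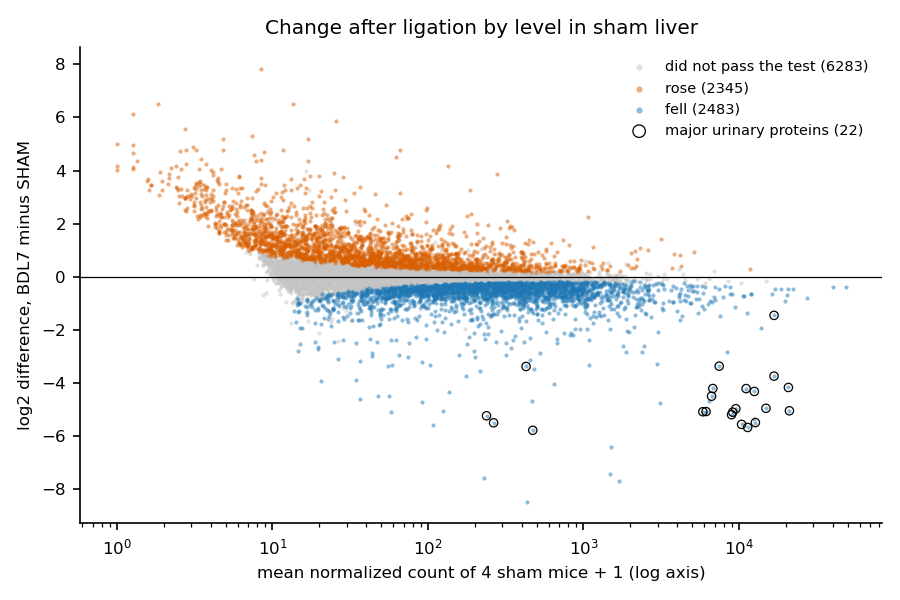
Each point is 1 of the 11111 genes, placed by its mean normalized count in the 4 sham mice (log axis, count + 1) and its log2 difference BDL7 minus SHAM. Genes that rose are orange, genes that fell are blue and the rest grey; falls gather at the right, where 70.4% of genes above 1000 counts fell, and the major urinary proteins form the cloud near -5.

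The major urinary proteins (Mup) fell as a family. They are small pheromone carriers that the male-pattern liver secretes into blood and that pass into urine. All 22 tested Mup genes fell, with a median of -5.02 against -0.01 for all genes. Their summed counts were 174001 to 238616 in the 4 sham mice, 6.87% of each library on average, and 9773 to 21569 in the ligated mice, 0.62%. Mup genes are near-identical copies whose reads cannot be assigned to single members with certainty, so the sum is the safer value. Mup9, as 1 member, read 404, 349.9, 257 and 160.3 in the ligated mice and 13696, 9561, 12339 and 15404 in the sham mice. For Mup9 every ligated mouse was below every sham mouse by more than an order of magnitude.

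Outside the Mup family the steepest falls included enzymes of steroids and lipids. Hsd3b5, a steroid dehydrogenase of male mouse liver, read 0, 1.02, 0 and 0 in the ligated mice and 487, 325, 462 and 449 in the sham mice (-8.48 ± 0.26, adjusted p = 3.68e-13). Elovl3, an elongase of very long fatty acids, read 10.9, 12.2, 4.99 and 3.82 in the ligated mice and 1518, 1596, 1764 and 1889 in the sham mice (-7.68 ± 0.35, adjusted p = 1.98e-06). Serpina1e, a copy of the alpha-1-antitrypsin gene, read 454, 459.8, 189 and 219 in the ligated mice and 13451, 11209.7, 12519 and 12808 in the sham mice (-5.35 ± 0.33, adjusted p = 2.42e-05). It was the member of the alpha-1-antitrypsin copies that fell most. Its neighbours Serpina1c (from 7587 to 2689 counts) and Serpina1d (from 5436 to 2120) differed by -1.50 ± 0.07 and -1.37 ± 0.09, and these copies may share reads. Car3, a carbonic anhydrase abundant in liver and fat, went from 6427 ± 465 to 260.4 ± 77.6 (-4.68 ± 0.25). Slco1a1, an organic anion uptake carrier, and the sulfotransferase Sult2a8 also fell by more than 6.

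Among the enzymes that prepare foreign compounds and steroids for excretion, falls outnumbered rises in the P450, UDP-glucuronosyltransferase and carboxylesterase families. Of 47 cytochrome P450 genes of families Cyp1 to Cyp4, 8 rose and 28 fell, with a median of -0.66; with equal-total scaling 12 rose and 21 fell. Cyp2d40 went from 316 ± 22.6 to 40.6 ± 7.85 (-2.95 ± 0.14), Cyp2u1 from 349 ± 38.3 to 66.9 ± 8.74 (-2.37 ± 0.12) and Cyp4v3 from 1459 ± 70.6 to 671 ± 35.3 (-1.12 ± 0.07). The few that rose were led in counts by Cyp2a5, a coumarin hydroxylase, which went from 441 ± 73.8 to 1065 ± 348 (1.22 ± 0.29) and was picked after its values were seen; its adjusted p was 0.0624 with a block on replicate number. Of 19 UDP-glucuronosyltransferases, which attach glucuronic acid, 0 rose and 16 fell (median -0.52); with equal-total scaling 1 rose and 8 fell. Ugt2b1 went from 2394 ± 247 to 332 ± 55 (-2.85 ± 0.11). The Ugt1a genes share their last exons, which is where this assay reads, so members of that cluster are uncertain. Of 13 carboxylesterases, which split ester drugs and lipids, 12 fell and 1 rose (median -1.57), with Ces3b going from 1875 ± 149.8 to 263 ± 50.1 (-2.84 ± 0.11) and Ces1d from 1093 ± 115 to 208 ± 36.7 (-2.40 ± 0.12).

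Glutathione transferases moved in opposite directions. Gsta1, an alpha-class enzyme that is hardly made in the healthy adult liver, read 576, 791, 251 and 382 in the ligated mice and 27.5, 22.3, 0 and 0 in the sham mice (6.50 ± 1.37, adjusted p = 0.0091). No sham mouse came near a ligated one. Gstm3 of the mu class went from 133 ± 21.5 to 2450.0 ± 633 (4.17 ± 0.19) and Gsta2 from 96.6 ± 9.05 to 408 ± 54.6 (2.06 ± 0.11). The abundant pi-class and constitutive alpha-class genes went the other way: Gstp1 fell from 4330.3 to 1583 (-1.47 ± 0.11) and Gsta3 from 4195 to 2258 (-0.90 ± 0.09). In all, 8 of 22 members rose and 9 fell, and with equal-total scaling 10 rose and 6 fell. Gstp1 and its copy Gstp2 are near-identical and may exchange reads. Sulfotransferases also moved in opposite directions, with 2 of 6 tested members rising and 3 falling. Among the 5 at 10 counts in every sham mouse 1 rose and 3 fell. Sult1e1, which inactivates oestrogens, read 49.3, 113, 244 and 114 in the ligated mice and 0, 1.24, 2.1 and 3.56 in the sham mice. Sult5a1 went from 73 ± 15.7 to 8.21 ± 2.02 (-3.01 ± 0.24).

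Membrane carriers moved in both directions. Of 208 solute carrier genes 47 rose and 71 fell, with a median of -0.05, so that 22.6% rose and 34.1% fell. With equal-total scaling 81 rose and 43 fell. Among the 180 at 10 counts in every sham mouse 28 rose and 71 fell. The other 28 could pass the filter through their level after ligation, and 19 of them rose. Slc27a2, which takes up and activates very long fatty acids, went from 1172 ± 75.8 to 465 ± 51.3 (-1.33 ± 0.08). Slc17a2, a phosphate carrier of the same list, went from 475 ± 18.7 to 184 ± 26.1 (-1.37 ± 0.10). Slc4a4, the sodium bicarbonate cotransporter, rose from 335 to 768 (1.19 ± 0.08). Among 34 ATP-binding cassette genes 11 rose and 9 fell, and with equal-total scaling 17 rose and 6 fell. At 10 counts in every sham mouse were 28 of these genes, of which 6 rose and 9 fell. Abcb1a, a multidrug exporter, read 44.3, 76.3, 74.8 and 84 in the ligated mice and 9.63, 12.4, 7.36 and 5.93 in the sham mice (2.85 ± 0.26, adjusted p = 8.67e-08), all ligated mice above all sham mice. Abcg1, a cholesterol exporter of macrophages, went from 21.7 ± 7.92 to 82.7 ± 14.6 (1.93 ± 0.23), and Abcd3, the peroxisomal carrier of fatty acids, from 1825 ± 115 to 779.6 ± 70.5 (-1.23 ± 0.08).

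Genes of energy supply fell on a broad front. All 13 genes encoded by mitochondrial DNA fell (median -0.79), and their sum went from 138412 to 164863 to 80941 to 100247 counts. mt-Nd4, a complex I subunit, read 14456, 17449, 16962 and 14520.2 in the ligated mice and 30377, 25597, 26185 and 27756 in the sham mice. With equal-total scaling 12 of the 13 fell. After quantile normalization, which forces all libraries to one distribution, 6 fell, 1 rose and mt-Nd4 was at -0.06. Of 86 nuclear genes of oxidative phosphorylation 81 fell and 0 rose (median -0.60), and 60 still fell with equal-total scaling. Ndufb9 went from 746 ± 44.3 to 399 ± 38.6 (-0.90 ± 0.08) and Cox6a1 from 1162 ± 58.8 to 706 ± 32.4 (-0.72 ± 0.07). The mitochondrial ribosome moved less: 37 of 78 genes fell and 0 rose, with a median of -0.32, but with equal-total scaling 5 rose, 7 fell and the median was -0.00. Pex11a, which drives peroxisome division, went from 769 ± 104 to 368 ± 19.9 (-1.05 ± 0.09).

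Genes of sugar metabolism moved in both directions. Of 14 genes of glucose release and glycogen 11 fell and 2 rose (median -0.66); with equal-total scaling 3 rose and 8 fell. Ppp1r3b, which targets a phosphatase to glycogen, went from 462 ± 37.4 to 199 ± 35.1 (-1.23 ± 0.12), and Pygl, liver glycogen phosphorylase, from 2285 ± 90.1 to 1246 ± 89.2 (-0.88 ± 0.07). In glycolysis and the pentose phosphate pathway 7 of 27 genes rose and 9 fell, and with equal-total scaling 11 rose and 3 fell. Among the 21 at 10 counts in every sham mouse 2 rose and 9 fell. The other 6 could pass the filter through their level after ligation, and 5 of them rose. Pgd, which makes NADPH, went from 149.9 ± 17.6 to 282 ± 33.6 (0.91 ± 0.11). The pyruvate kinase step, chosen here after its values were seen, moved in opposite directions in its isoforms. The muscle and growth form of pyruvate kinase, Pkm, read 126, 66.1, 58.8 and 67.9 in the ligated mice and 28.9, 9.93, 22.1 and 22.5 in the sham mice (1.91 ± 0.33, adjusted p = 0.000677). The liver form Pklr read 54.3, 83.4, 58.8 and 49.6 in the ligated mice and 161, 236, 243 and 121 in the sham mice (-1.58 ± 0.24, adjusted p = 0.000505). The groups did not overlap for either gene. Hexokinase 2, Hk2, also picked after its values were seen, went from 8.74 ± 5 to 35.1 ± 19.3 (1.91 ± 0.40).

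Plasma proteins of the acute phase, which hepatocytes secrete in inflammation, mostly rose. Of 26 acute-phase genes 18 rose and 5 fell (median 0.95); with equal-total scaling 20 rose and 1 fell. The 10 largest gains of mean counts in the whole comparison were all secreted plasma proteins or glutathione transferases. Ceruloplasmin, Cp, the copper-carrying ferroxidase, read 8011, 7728, 9490.1 and 8371 in the ligated mice and 3354, 2959, 3276 and 2998 in the sham mice (1.41 ± 0.08, adjusted p = 2.81e-10). Hemopexin, Hpx, which binds free heme, went from 5125 ± 438 to 9659 ± 645 (0.92 ± 0.08), haptoglobin, Hp, which binds haemoglobin, from 4159 ± 313 to 7268 ± 321 (0.81 ± 0.07), and transferrin, Trf, the iron carrier, from 11688 ± 936 to 14375 ± 1530.4 (0.30 ± 0.09); the adjusted p of Trf was 0.054 without limma's trend and robust options. Orm2, an alpha-1-acid glycoprotein, read 1199, 1421, 1525 and 1479 in the ligated mice and 78.4, 50.9, 57.9 and 59.3 in the sham mice (4.50 ± 0.12, adjusted p = 5.9e-13). Serum amyloid A1, Saa1, went from 1064 ± 126 to 4969.5 ± 223 (2.23 ± 0.08) and Saa2 from 277 ± 60.5 to 3994 ± 465 (3.86 ± 0.15). Saa1 and Saa2 are close copies and may share reads, as may Orm2 with Orm1 and Orm3. Fgl1, a hepatocyte-secreted ligand of the fibrinogen family, went from 2031 ± 184 to 3731 ± 194 (0.88 ± 0.08). Serpina3k, a kallikrein inhibitor counted among the list's members that fell, went from 13921 ± 854 to 3676 ± 635 (-1.94 ± 0.11).

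Of 26 complement genes 8 rose and 11 fell, a balance that turned to 13 rises and 5 falls with equal-total scaling. C3, the central component, went from 3794 ± 200.1 to 6930.1 ± 560.4 (0.87 ± 0.08) and Clu, an inhibitor of the terminal complex, from 2317 ± 207 to 4889 ± 774 (1.07 ± 0.10). The pore-complex genes C8b, C8g and C9 fell: C8b went from 2133 ± 129.6 to 788 ± 107 (-1.44 ± 0.09), C8g from 1255 ± 71.7 to 457 ± 38.6 (-1.46 ± 0.08) and C9 from 2841 ± 292 to 1463 ± 104 (-0.95 ± 0.08). Clotting factors mostly fell, 18 of 24 with 2 rising and a median of -0.36; with equal-total scaling 5 rose and 6 fell. Proc, the precursor of anticoagulant protein C, went from 751 ± 51.1 to 409 ± 24.7 (-0.87 ± 0.08) and Klkb1, plasma prekallikrein, from 1422 ± 73 to 783 ± 95.8 (-0.87 ± 0.09), whereas Pros1, the cofactor protein S, rose from 332 to 591 (0.83 ± 0.08). The clotting median was 0.07 after quantile normalization and -0.03 with equal-total scaling. Of 18 apolipoproteins 12 fell and 0 rose; with equal-total scaling 3 rose and 9 fell. The median of -0.49 became 0.02 after quantile normalization. Apoa2, which stayed among the falls, went from 9409 ± 305 to 4260.1 ± 401 (-1.15 ± 0.08).

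Metallothioneins, which bind zinc and copper, had the largest rises of the 27 tested genes of the metal-handling list. Mt2 read 1507, 1047, 1509 and 1635 in the ligated mice and 20.6, 22.3, 41 and 14.2 in the sham mice (5.88 ± 0.32, adjusted p = 7.75e-06). Mt1 read 1556, 1332, 2066 and 1704 in the ligated mice and 53.7, 42.2, 119.9 and 45.1 in the sham mice (4.77 ± 0.36, adjusted p = 5.84e-05). The lowest ligated mouse exceeded the highest sham mouse by an order of magnitude for each gene. Both lie side by side on chromosome 8 and rose together, and their promoters are shown for the metal response elements they hold, the sites read by the zinc-sensing factor MTF1. The windows run from 250 bases before to 50 bases after the RefSeq start, on the plus strand of GRCm38.p6, at chr8:94172368-94172667 for Mt2 and chr8:94178839-94179138 for Mt1. Capitals mark each match to TGCACNC or TGCGCNC, the core letters of the element, on either strand.
Mt2: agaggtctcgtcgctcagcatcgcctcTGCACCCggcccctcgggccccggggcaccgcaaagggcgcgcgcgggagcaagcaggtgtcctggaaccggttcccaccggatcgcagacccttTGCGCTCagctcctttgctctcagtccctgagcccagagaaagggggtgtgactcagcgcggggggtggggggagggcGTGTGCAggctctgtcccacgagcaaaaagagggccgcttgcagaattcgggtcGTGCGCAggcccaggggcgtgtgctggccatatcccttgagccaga
Mt1: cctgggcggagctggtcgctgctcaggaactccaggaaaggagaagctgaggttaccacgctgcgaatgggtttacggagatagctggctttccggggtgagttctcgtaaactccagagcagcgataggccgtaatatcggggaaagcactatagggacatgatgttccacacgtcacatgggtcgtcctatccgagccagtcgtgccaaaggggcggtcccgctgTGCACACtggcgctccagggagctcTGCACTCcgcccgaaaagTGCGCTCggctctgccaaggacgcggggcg
Mt2 had 4 matches and Mt1 had 3. At least 1 match stood in 25.6% of all 27025 RefSeq promoter windows of this length and in 35.9% of the 8460 windows matched to tested genes, against 32.6% of those whose genes rose by more than 1, so the letters alone are common. A match is a description of the window and not a mapped site.

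With the metallothioneins included, 12 of 27 genes of zinc, copper and iron handling rose and 5 fell, a count of falls that was 3 without BDL7 replicate 1; with equal-total scaling 20 rose and 1 fell. Slc40a1, the iron exporter ferroportin, went from 339.8 ± 30.6 to 725 ± 64.5 (1.09 ± 0.09), Hmox1, which degrades heme, from 96.5 ± 21.2 to 292 ± 38.5 (1.60 ± 0.14), and Slc30a10, a manganese exporter, from 244 ± 10.9 to 92.6 ± 18.7 (-1.41 ± 0.12). Among 31 redox genes 6 rose and 13 fell, which turned to 14 and 4 with equal-total scaling. Srxn1, which repairs oxidised peroxiredoxins, went from 212 ± 34.8 to 529.8 ± 64.9 (1.33 ± 0.12). Catalase, Cat, fell from 4881 to 2483 (-0.98 ± 0.08), and Dio1, the selenoenzyme that activates thyroid hormone, read 41.8, 31.5, 42.9 and 55 in the ligated mice and 489.9, 539, 405 and 495 in the sham mice (-3.48 ± 0.14, adjusted p = 3.21e-11). Sephs2, needed for selenocysteine synthesis, fell from 1847 to 843 (-1.13 ± 0.08).

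Of 24 heat shock chaperones 15 fell and 1 rose (median -0.36; 8 fell and 3 rose with equal-total scaling). Hspd1 and Hspe1, the mitochondrial chaperonin pair, went from 1934 ± 103 to 1208 ± 62.5 (-0.68 ± 0.07) and from 918 ± 65.9 to 567 ± 34.5 (-0.70 ± 0.08). The cytosolic co-chaperone Dnaja1 went from 1539.7 ± 162 to 924 ± 123 (-0.74 ± 0.10). In the endoplasmic reticulum 12 of 35 genes fell and 0 rose, with a median of -0.10, which with equal-total scaling turned to 15 rises and 3 falls, and Creb3l3, a membrane-bound factor of that compartment, went from 583 ± 29.2 to 300.4 ± 50.9 (-0.97 ± 0.11). Cytosolic ribosomal proteins had 40 falls and 0 rises among 80 (median -0.20), but this turned with the scale: with equal-total scaling 21 rose and 1 fell, with a median of 0.13. The proteasome turned likewise, from 3 rises and 18 falls to 15 rises and 1 fall, and without BDL7 replicate 3 it had 6 rises. Psmd8, a lid subunit, rose from 556 to 909.6 (0.70 ± 0.09). Of 20 autophagy genes 8 fell and 1 rose, or 3 and 4 with equal-total scaling, and Ulk2, a kinase that starts autophagy, went from 430.4 ± 39.3 to 228 ± 20.8 (-0.91 ± 0.09).

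Of 5 tested keratins, the filament proteins of epithelia, 4 rose and 1 fell. Among the 3 at 10 counts in every sham mouse 2 rose and 1 fell. The other 2 could pass the filter through their level after ligation, and both rose. Krt8 and Krt18 pair in the filaments of hepatocytes and cholangiocytes. Krt8 read 1529, 1459.7, 1259 and 1194 in the ligated mice and 333, 328, 335 and 283 in the sham mice (2.08 ± 0.09, adjusted p = 7.34e-12). Krt18 read 1005, 1007, 773 and 766 in the ligated mice and 175, 202, 174 and 161 in the sham mice (2.30 ± 0.11, adjusted p = 4.3e-11). Each ligated mouse held more than every sham mouse of both. Krt23 and Krt19, the latter a duct keratin in healthy liver, went from 6.67 ± 3.92 to 29.9 ± 5.98 (2.11 ± 0.33) and from 2.12 ± 1.14 to 20.5 ± 6.35 (2.80 ± 0.41), and Krt10, picked after its values were seen as the only tested keratin that fell, from 30.6 ± 6.42 to 13.3 ± 4.23 (-1.17 ± 0.26). Cldn4, a tight junction claudin of ducts, read 21.7, 17.3, 32.9 and 26.7 in the ligated mice and 0, 2.48, 1.05 and 0 in the sham mice. Of 15 tight junction genes 8 rose and 3 fell, and of 15 genes of cadherin and desmosome adhesion 8 rose and 1 fell. Among the 13 tight junction genes at 10 counts in every sham mouse 7 rose and 3 fell. Among the 12 adhesion genes at that level 5 rose and 1 fell. In bulk liver these values do not say which epithelial cell carried them. Cd24a, a surface protein of duct and progenitor cells, went from 9.11 ± 3.97 to 78.6 ± 24.4 (2.99 ± 0.28), Dsp, which anchors keratin to desmosomes, from 287 ± 37.6 to 479 ± 63.9 (0.74 ± 0.11), and Ceacam1, a canalicular adhesion protein, from 782 ± 19.4 to 420.1 ± 53.9 (-0.90 ± 0.09).

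Several epithelial genes went from near silence to clear expression. Sprr1a, a squamous cross-linking protein, read 169, 67.1, 52.8 and 79.4 in the ligated mice and 0, 0, 1.05 and 0 in the sham mice (6.14 ± 0.40, adjusted p = 1.82e-09). Ly6d, a surface protein of some epithelial and lymphoid progenitors, read 429, 312, 122 and 221 in the ligated mice and 2.75, 9.93, 10.5 and 2.37 in the sham mice (5.28 ± 0.59, adjusted p = 0.000353). Gipc2, a PDZ adaptor, read 163, 142, 63.8 and 92.3 in the ligated mice and 5.5, 7.45, 1.05 and 1.19 in the sham mice (4.78 ± 0.52, adjusted p = 6.65e-05). In each of these 3 genes the groups were far apart, and the ligated mice differed among themselves by up to several fold. Rdh16f1, a retinol dehydrogenase family gene, read 63.5, 71.2, 70.8 and 83.2 in the ligated mice and 15.1, 0, 0 and 0 in the sham mice; SHAM replicate 1 alone gave a reading among the controls. Mybl1, a Myb-family factor, went from 1.8 ± 2.17 to 61.8 ± 12.1 (4.77 ± 0.44). Wfdc3, a whey acidic protein family member without a read in the sham mice and named for that, averaged 17.2 ± 3.37 and was at least 19-fold higher. For that bound the 4 sham libraries together were credited with 3 reads, which allows for counting error only.

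Of 12 tested cholangiocyte markers 6 rose and 0 fell. Of the 7 at 10 counts in every sham mouse 2 rose and 0 fell. The other 5 could pass the filter through their level after ligation, and 4 of them rose. Spp1, osteopontin, made by duct cells and macrophages, read 2273, 1527, 1728 and 1740.1 in the ligated mice and 180.3, 176, 227 and 162 in the sham mice (3.27 ± 0.13, adjusted p = 9.76e-10). Elf3 and Ehf, epithelial factors of the ETS family, went from 5.12 ± 2.51 to 77.6 ± 18.6 (3.75 ± 0.29) and from 2.51 ± 1.26 to 28.9 ± 12.6 (3.03 ± 0.42), and Sox4 went from 21.6 ± 7.93 to 109 ± 25.9 (2.32 ± 0.27). Among 25 factors of progenitors, ducts and mesenchyme 13 rose and 0 fell (median 0.73). Of the 19 at 10 counts in every sham mouse 9 rose and 0 fell. The duct factor Sox9, picked after its values were seen, read 701, 258, 499 and 390.0 in the ligated mice and 253, 295, 190.4 and 139 in the sham mice; it did not pass limma's test (1.04 ± 0.38, adjusted p = 0.0681) but did in edgeR (1.11, adjusted p = 0.00403) and DESeq2 (1.09, adjusted p = 0.0115) on recovered reads, and BDL7 replicate 2 was within the range of the sham mice. Of 39 hepatocyte factors 3 rose and 14 fell (median -0.29), and with equal-total scaling 7 rose and 3 fell. Without SHAM replicate 3 the number that fell was 9, and without it or BDL7 replicate 2, 3 or 4 only 1 rose. Thrb, the thyroid hormone receptor of liver, went from 421 ± 34.5 to 219 ± 9.79 (-0.94 ± 0.09), Ppara, the sensor of fatty acids, from 393 ± 60.5 to 170.3 ± 33.2 (-1.21 ± 0.14), and Cebpa, a keeper of the mature hepatocyte state, from 616 ± 8.14 to 413 ± 32 (-0.58 ± 0.08).

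Of 34 actin cytoskeleton genes 31 rose and 0 fell (median 1.15). Actg1, cytoplasmic actin, read 1399, 1149, 1328 and 1008 in the ligated mice and 354, 323, 367 and 374 in the sham mice (1.77 ± 0.10, adjusted p = 1.93e-10). Vim, the filament of mesenchymal and blood cells, went from 38.5 ± 3.26 to 224 ± 55.1 (2.48 ± 0.15), Tmsb4x, which binds actin monomers, from 742 ± 73.1 to 1944 ± 249 (1.38 ± 0.09), and Myh9, non-muscle myosin, from 202 ± 13.7 to 474 ± 50.8 (1.22 ± 0.09). Of 11 tubulins 8 rose and 2 fell, and the largest relative rise was that of Tubb2b, from 3 to 67.1 (4.01 ± 0.30). Among the annexins, calcium-binding proteins of membranes, 7 of 8 rose and 0 fell, and Anxa2 read 440.3, 262, 208 and 301 in the ligated mice and 33, 36, 36.8 and 24.9 in the sham mice (3.14 ± 0.21, adjusted p = 1.5e-07). Of 10 S100 proteins, small calcium-binding proteins, 5 rose and 2 fell, with 1 fall in place of 2 without any of BDL7 replicates 1, 3 and 4 and SHAM replicates 2, 3 and 4. Of the 7 S100 genes at 10 counts in every sham mouse 2 rose and 2 fell. S100a11 went from 24.4 ± 4.42 to 242 ± 54.7 (3.25 ± 0.17) and S100a6 from 14.1 ± 5.51 to 157 ± 27.9 (3.45 ± 0.24). Of 15 integrins, the receptors for matrix and for endothelium, 10 rose and 0 fell. Among the 9 at 10 counts in every sham mouse 7 rose and 0 fell. Rising integrins included the leukocyte subunits Itgb2 and Itgam (1.83 ± 0.16 and 2.64 ± 0.28) and the matrix subunit Itgav (0.78 ± 0.13).

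**Figure D2:**
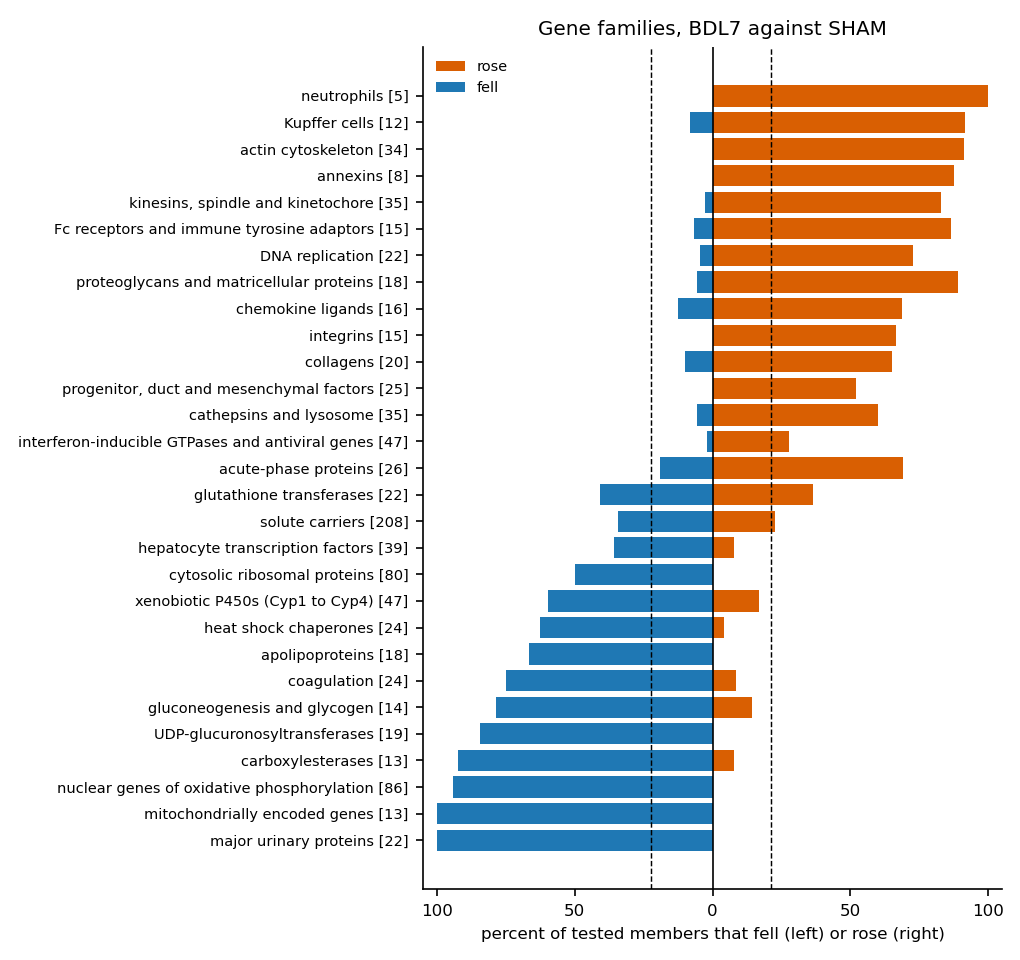
For each gene family, the bar to the right is the percent of its tested members that rose in BDL7 against SHAM and the bar to the left the percent that fell, with the number tested in brackets; dashed lines mark 21.1% and 22.3%, the shares over all 11111 genes. Actin genes extend right, as do spindle and neutrophil genes, of which 23 of 35 and 4 of 5 were under 10 counts in at least 1 sham mouse, and the Mup, mitochondrial and UDP-glucuronosyltransferase genes extend left; the balance for ribosomal proteins, solute carriers, glutathione transferases and hepatocyte factors turned with equal-total scaling.

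Matrix genes were grouped by whether they build, organise or remodel it. Of 20 collagen genes 13 rose and 2 fell (median 1.39). Of the 13 at 10 counts in every sham mouse 6 rose and 2 fell. The other 7 could pass the filter through their level after ligation, and all 7 rose. Col1a1, the main chain of scar collagen, read 459, 182, 372 and 451 in the ligated mice and 15.1, 16.1, 16.8 and 15.4 in the sham mice (4.35 ± 0.26, adjusted p = 4.23e-07). Col1a2 read 452, 256, 393 and 512 in the ligated mice and 49.5, 39.7, 52.6 and 37.9 in the sham mice, and Col6a3 went from 16.5 ± 4.25 to 110.2 ± 28.1 (2.66 ± 0.21). Lum and Vcan, proteoglycans of loose matrix, went from 20.6 ± 5.99 to 94.4 ± 13.6 (2.18 ± 0.20) and from 0.263 ± 0.526 to 20.4 ± 8.86 (4.06 ± 0.51). Of 18 proteoglycan and matricellular genes 16 rose and 1 fell, and of the 10 at 10 counts in every sham mouse 8 rose and 1 fell. Of 21 proteases, inhibitors and crosslinkers 15 rose and 1 fell, but of the 10 at that level in every sham mouse only 4 rose and 1 fell. Mmp14, a membrane-bound collagenase, went from 88.7 ± 10.1 to 258 ± 15.9 (1.53 ± 0.11), Timp1, which blocks such enzymes, from 0.344 ± 0.688 to 24.9 ± 6.02 (4.36 ± 0.47), and Plat, tissue plasminogen activator, from 2.99 ± 0.47 to 32.8 ± 13.6 (2.98 ± 0.36). Mmp12, the macrophage elastase, read 97.8, 39.7, 60.8 and 77.8 in the ligated mice and 2.75, 1.24, 1.05 and 1.19 in the sham mice (4.75 ± 0.34, adjusted p = 4.86e-09). Nid1 and Sparc, of the basement membrane and its assembly, averaged 52.4 and 319 counts in the sham mice, and Nid1 averaged 343 in the ligated mice while Sparc went from 319 to 742 (1.22 ± 0.13).

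Of 15 stellate and portal fibroblast markers 10 rose and 3 fell, and their summed counts were 767 to 833 in the sham mice and 1283 to 2095 in the ligated mice; with equal-total scaling 11 rose and 1 fell. The list contains collagen genes, so its count is not separate from theirs. Of its 10 tested genes at 10 counts in every sham mouse 5 rose and 3 fell. The other 5 could pass the filter through their level after ligation, and all 5 rose. Cygb, a globin of stellate cells, went from 35.1 ± 1.62 to 102 ± 26.4 (1.48 ± 0.17). Acta2, smooth muscle actin, read 64.3, 19.3, 84.8 and 68.7 in the ligated mice and 2.75, 7.45, 4.21 and 3.56 in the sham mice (3.34 ± 0.42, adjusted p = 1.9e-05), with BDL7 replicate 2 well below the other ligated mice. The same mouse had the highest counts of the mesothelial markers Msln and Lrrn4, 22.4 and 17.3 against at most 5.3 and 7.0 in the other 7 mice. Whether the share of liver capsule in a sample bears on its fibroblast genes was not tested. Among growth signals, Tgfb2, a fibrogenic ligand, rose from 9.68 to 54 (2.35 ± 0.22), and Fstl1 from 23.8 to 150.2 (2.60 ± 0.16). Of 26 genes of TGF-beta and BMP signalling 9 rose and 5 fell; with equal-total scaling 16 rose and 3 fell. Of 21 of Wnt, Notch and hedgehog signalling 4 rose (2 without BDL7 replicate 3) and 2 fell, and with equal-total scaling 10 rose and 0 fell. Of the 14 of these at 10 counts in every sham mouse 1 rose and 2 fell.

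The filter bears on counts of genes that are nearly silent in healthy liver. Of 11111 tested genes 9615 reached 10 counts in all 4 sham mice, and 16.7% of these rose, against 49.1% of the other 1496, which could pass the filter through their level after ligation. Of 16 chemokine ligands 11 rose and 2 fell; 12 reached that level in every sham mouse, and 7 of those rose. Of 21 chemokine receptors only 5 passed the filter and 1 of these was at 10 counts in every sham mouse, so their number of rises carries no weight. Cxcl5, a neutrophil attractant of epithelia, read 190.5, 64.1, 216 and 179 in the ligated mice and 0, 1.24, 2.1 and 0 in the sham mice (6.52 ± 0.46, adjusted p = 1.73e-07). Ccl6 went from 98.3 ± 26.9 to 585 ± 82.8 (2.59 ± 0.20) and Cxcl14 from 9.57 ± 3.65 to 93.3 ± 32.9 (3.17 ± 0.30). Cx3cr1, of monocyte-derived cells, read 255, 144, 230.3 and 298 in the ligated mice and 8.26, 7.45, 9.47 and 5.93 in the sham mice (4.70 ± 0.21, adjusted p = 1.69e-11), and Ccr2, the receptor that brings monocytes out of marrow, read 249, 140.4, 180.5 and 167 in the ligated mice and 23.4, 21.1, 6.31 and 9.49 in the sham mice (3.67 ± 0.41, adjusted p = 0.000186). The groups did not overlap for either receptor.

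Of 28 interleukin and receptor genes 17 rose and 5 fell, and of the 18 at 10 counts in every sham mouse 8 rose and 5 fell. Il1rn, which blocks interleukin 1, went from 10.8 ± 3.81 to 132 ± 50.9 (3.47 ± 0.27), while Il1rap, the shared chain of that receptor, fell from 308 to 109.9 (-1.48 ± 0.10). Lifr, the receptor of leukaemia inhibitory factor, read 338, 366, 316 and 350.3 in the ligated mice and 1255, 947, 1094 and 1307 in the sham mice (-1.74 ± 0.09, adjusted p = 1.84e-10). Osmr, which takes its place in the oncostatin M receptor, went from 8.23 ± 3.3 to 36 ± 14.1 (2.01 ± 0.32), and Il6ra, the interleukin 6 receptor, from 158 ± 26.6 to 87.8 ± 13.9 (-0.84 ± 0.14); both were picked after their values were seen. Of 17 genes of the TNF superfamily 14 rose and 0 fell (7 of the 10 at 10 counts in every sham mouse rose), with the TWEAK receptor Tnfrsf12a going from 10.4 ± 1.65 to 89.9 ± 8.41 (3.01 ± 0.19) and the brake on NF-kappaB signalling Tnfaip3 from 6.33 ± 2.67 to 39.9 ± 10.3 (2.52 ± 0.30). Cd14, the co-receptor of bacterial lipopolysaccharide, went from 6.84 ± 2.7 to 165 ± 86.8 (4.35 ± 0.38) and Tlr2 from 12.2 ± 2.07 to 43.4 ± 8.42 (1.74 ± 0.22).

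Of 12 Kupffer cell markers 11 rose and 1 fell, with sums of 1872 to 2085 in the sham mice and 3425 to 4588 in the ligated mice. Marco, a scavenger receptor, read 724, 752, 604 and 368 in the ligated mice and 11, 24.8, 10.5 and 17.8 in the sham mice (5.20 ± 0.34, adjusted p = 9.7e-06), and Cd5l, secreted by tissue macrophages, went from 291 ± 49.3 to 1044 ± 187 (1.84 ± 0.14). Of 18 markers of monocytes and recruited macrophages 15 rose and 2 fell, and of the 8 at 10 counts in every sham mouse 5 rose and 2 fell. Gpnmb, a glycoprotein of lipid-laden macrophages, read 89.4, 75.3, 91.7 and 90.1 in the ligated mice and 2.75, 1.24, 3.16 and 1.19 in the sham mice (4.88 ± 0.28, adjusted p = 3.98e-10). Chil3 and Trem2 had no read in the sham mice and were named for that. They averaged 35.9 ± 18.5 and 15.6 ± 2.78, at least 39.8-fold and 17.2-fold higher over the same floor. Of 15 Fc receptor and adaptor genes 13 rose and 1 fell (4 and 1 of the 6 at 10 counts in every sham mouse), led in significance by Fcer1g, from 46.3 to 141 (1.58 ± 0.14). Of 35 lysosomal genes 21 rose and 2 fell, among them Cd63, from 27.4 to 372 (3.75 ± 0.21), and Lgmn, from 207 to 486 (1.23 ± 0.10).

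Only 5 of 20 neutrophil markers passed the filter. These were all higher after ligation, but S100a8 alone was at 10 counts in every sham mouse, so their number carries no weight. S100a8, a cytosolic protein of neutrophils and monocytes, read 194, 118, 177 and 149 in the ligated mice and 26.1, 12.4, 18.9 and 17.8 in the sham mice (3.04 ± 0.21, adjusted p = 1.01e-08), and S100a9 went from 12.2 ± 3.06 to 90.5 ± 21.9 (2.79 ± 0.23). Lcn2, which the list also holds and which stressed hepatocytes make as well, read 1853, 1404, 1591 and 1875 in the ligated mice and 4.13, 6.21, 15.8 and 3.56 in the sham mice (7.84 ± 0.42, adjusted p = 9.05e-06) and gave the largest rise of the whole comparison. The granule genes Elane, Ltf, Mpo, Ngp and Camp, which maturing neutrophils make in marrow, stayed under 2 counts in every mouse. Prtn3, another gene of that granule, rose from 3.68 to 62.3 (4.07 ± 0.68). Retnlg, a marker of mature neutrophils below the filter, was at 7.1 to 17.6 counts in the ligated mice and 1.1 to 4.1 in the sham mice.

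Lymphocytes left little trace in either group. Of 24 T and NK cell markers 19 stayed under 10 counts in every mouse and only 2 were tested, neither of which rose. Cd3e was at 0 to 3.2 counts and Cd79a, of B cells, at 0 to 1.5. Ighm, the heavy chain of immunoglobulin M, fell from 34.8 to 10.3 (-1.64 ± 0.44). Of 47 interferon-inducible genes 13 rose and 1 fell (median 0.65). Their summed counts were 14694, 7035, 4596 and 5249 in the 4 ligated mice and 5523 to 6433 in the sham mice, so BDL7 replicate 1 alone stood clearly above the controls and replicates 3 and 4 stood below them. Without BDL7 replicate 1, 14 rose and 4 fell, and without BDL7 replicate 3 the number that rose was 20. Of the 35 interferon-inducible genes at 10 counts in every sham mouse 7 rose and 1 fell. Ubd, a ubiquitin-like protein, read 170.4, 85.4, 25.9 and 68.7 in the ligated mice and 4.13, 3.72, 1.05 and 0 in the sham mice (4.77 ± 0.69, adjusted p = 0.000526), and Gbp2, a guanylate-binding protein, 113, 50.9, 26.9 and 28.2 in the ligated mice and 16.5, 18.6, 15.8 and 10.7 in the sham mice; without SHAM replicate 4 the adjusted p of Gbp2 was 0.051. Irf8, of monocytes and dendritic cells, went from 26.5 ± 4.78 to 88.4 ± 31.8 (1.66 ± 0.22). Of 20 MHC genes 9 rose and 3 fell, and with equal-total scaling 14 rose and 0 fell. Leaving out each mouse in turn gave 6 to 12 rises among these MHC genes. B2m, the light chain of class I, fell from 7433 to 5390.0 (-0.47 ± 0.08), a fall that was -0.14 and not called with equal-total scaling and turned to 0.30 after quantile normalization.

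**Figure D3:**
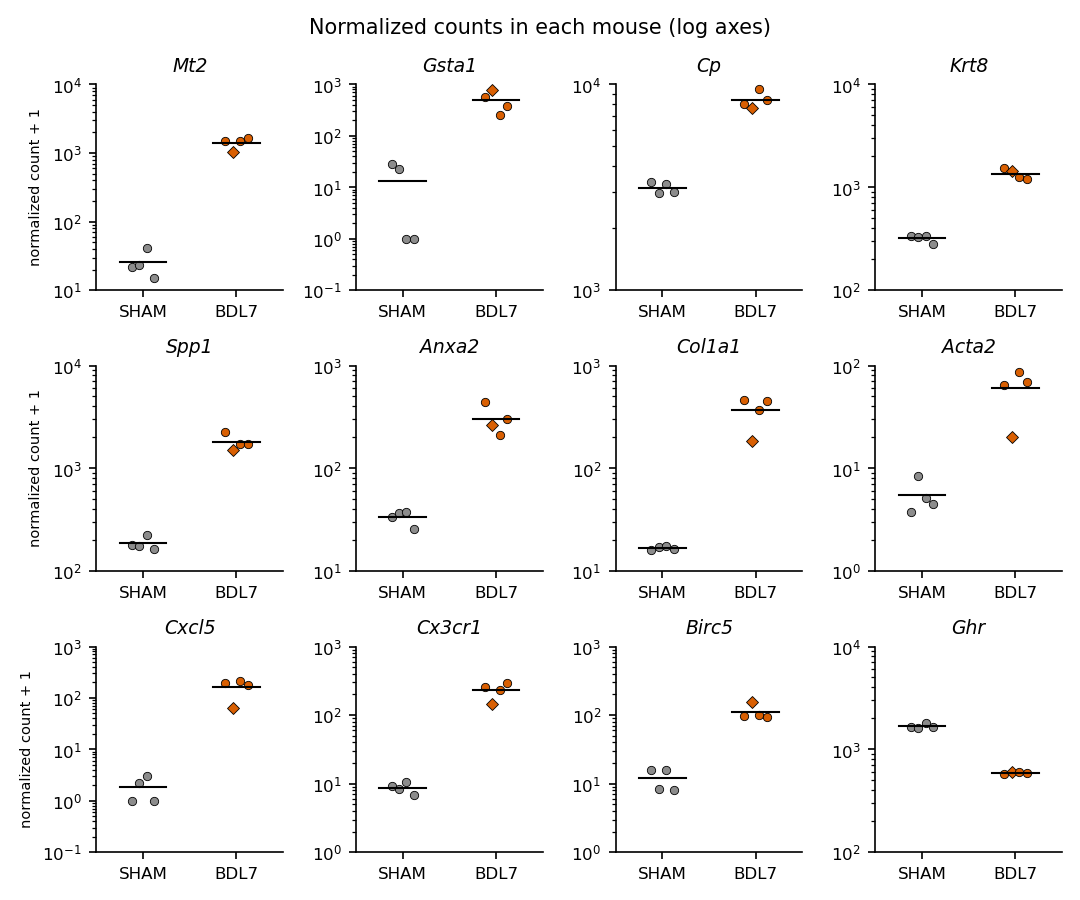
Normalized counts of 12 genes in each of the 4 sham mice (grey) and the 4 ligated mice (orange), on a log axis of count + 1; horizontal bars are group means. The groups are apart in all 12 genes. BDL7 replicate 2, drawn as a diamond, is lowest among ligated mice for Mt2, Cp, Spp1, Col1a1, Acta2, Cxcl5 and Cx3cr1. It is highest among them for Gsta1 and Birc5.

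Of 35 kinesin, spindle and kinetochore genes 29 rose and 1 fell. Only 12 of them were at 10 counts in every sham mouse, and of these 6 rose and 1 fell. Birc5, a subunit of the chromosomal passenger complex, read 97.8, 155, 98.7 and 93.1 in the ligated mice and 15.1, 7.45, 14.7 and 7.12 in the sham mice (3.25 ± 0.25, adjusted p = 5.31e-08), and Ccna2, cyclin A, read 47.6, 58, 33.9 and 38.9 in the ligated mice and 5.5, 6.21, 2.1 and 2.37 in the sham mice (3.25 ± 0.33, adjusted p = 3.54e-07). The groups did not overlap for either gene, and the counts in the sham mice were near the limit of detection for Ccna2. Of 22 replication genes 16 rose and 1 fell, and of the 17 at 10 counts in every sham mouse 11 rose and 1 fell. Lig1, which joins replicated fragments, went from 24.3 ± 7.54 to 134 ± 23.4 (2.45 ± 0.19), and the helicase subunits Mcm6 and Mcm3 went from 16.6 ± 4.72 to 83.4 ± 32.9 (2.23 ± 0.26) and from 19.7 ± 5.44 to 79.7 ± 25.8 (1.95 ± 0.24). The 1 that fell was Mcm10, picked after its values were seen, at 42.6, 72.2, 27.9 and 48.8 in the ligated mice and 246, 191, 198 and 455 in the sham mice (-2.47 ± 0.38, adjusted p = 0.00179). Ccnd1, cyclin D1, which starts the cycle, read 832, 1132, 1151 and 801 in the ligated mice and 242, 181, 148 and 179 in the sham mice (2.38 ± 0.17, adjusted p = 4.22e-06). Cdk6 went from 330.2 ± 21.9 to 525 ± 35.3 (0.67 ± 0.08). These values do not say which cell type divided.

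Of 27 genes of cell death and survival 15 rose and 2 fell; with equal-total scaling 21 rose and 0 fell. Casp12, a caspase of the endoplasmic reticulum, went from 21.7 ± 3.91 to 104 ± 37.3 (2.16 ± 0.21), Pmaip1, which favours apoptosis, from 3.33 ± 0.692 to 23.9 ± 4.44 (2.52 ± 0.32), and Bcl2 and Mcl1, which oppose it, from 13.5 ± 0.329 to 46.2 ± 7.58 (1.69 ± 0.20) and from 362 ± 52.3 to 599 ± 18.6 (0.74 ± 0.09). Of 25 immediate early genes 10 rose and 2 fell. Klf6 read 329, 322, 367 and 368 in the ligated mice and 68.8, 83.2, 67.3 and 64 in the sham mice (2.28 ± 0.11, adjusted p = 2.49e-11), and Atf3 and Ier3 went from 3.07 ± 0.937 to 29.6 ± 4.73 (2.92 ± 0.32) and from 7.51 ± 3.45 to 92.7 ± 29.8 (3.49 ± 0.28).

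Of 22 genes of the growth hormone axis 4 rose (2 without BDL7 replicate 4) and 11 fell; with equal-total scaling 5 rose and 9 fell. Ghr, the growth hormone receptor, read 582, 603, 603 and 594 in the ligated mice and 1642, 1617, 1812 and 1649.5 in the sham mice (-1.49 ± 0.07, adjusted p = 2e-11), with no overlap. Igfals, which stabilises circulating IGF, went from 267 ± 19.9 to 101 ± 9.62 (-1.40 ± 0.10), Stat5b, which relays the hormone, from 206 ± 19 to 127 ± 11.2 (-0.69 ± 0.11), and Irs2, which relays insulin, from 424 ± 94.1 to 132 ± 20.8 (-1.67 ± 0.16). Of 29 growth factor ligands 15 rose and 4 fell. Nrg1, a ligand of ERBB receptors, went from 1.21 ± 0.134 to 37.1 ± 5.26 (4.09 ± 0.33), Gas6 from 83.9 ± 18.3 to 245 ± 8.14 (1.56 ± 0.14), and Fgf1 from 235 ± 40.4 to 69.4 ± 9.01 (-1.74 ± 0.13).

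Promoters of the strongly falling genes held the letters CAAAGTCCA or CAAAGTTCA, a core read by the hepatocyte factor HNF4A, in 11 of 289 windows (3.81%), against 13 of 827 (1.57%) for genes rising by more than 1, 34 of 4758 (0.715%) for genes not called and 0.862% of all 27025 windows. It was picked to be shown after the shares of 11 motifs had been seen. Other letters were also more frequent in the strongly falling genes than in genes not called: TATAAA in 14.9% against 6.31%, TTTGAA in 20.1% against 11.4% and the HNF1 motif in 1.38% against 0.294%. CCAAT stood in 42.2% against 39.2% and the NF-kappaB motif in 1.73% against 1.41%. The other motifs were less frequent in the strongly falling genes than in genes not called. The metal response letters stood in 25.6% against 37.7%, TGACNNNGC in 12.1% against 14.7% and TTCNNNGAA in 5.19% against 7.17%. The E2F letters TTTCCCGC, TTTGGCGC or TTTGCCGC stood in 1.73% against 3.91%, and the interferon-stimulated response element in 2.08% against 3.11%. These are counts of windows on either strand, and no test was made. To show where the letters lie, 5 windows are given with 6 flanking bases on each side, on the strand of the gene in GRCm38.p6. Capitals mark the match, which may lie on either strand. They come from Hsd3b5 (chr3:98645564-98645584, minus), Cyp8b1 (chr9:121916358-121916378, minus), Cyp2c40 (chr19:39812845-39812865, minus), Hao1 (chr2:134554429-134554449, minus) and Aadat (chr8:60506046-60506066, plus).
Hsd3b5: tggaagTGAACTTTGaggctt
Cyp8b1: tctgagCAAAGTCCAagggca
Cyp2c40: ttgagaCAAAGTCCAtttgga
Hao1: taaataTGAACTTTGgcaaaa
Aadat: tgtggaTGGACTTTGtccctt
The matches began 44, 67, 45, 91 and 72 bases before the RefSeq start. Apart from Hsd3b5 these genes were picked for the match. Hao1, a peroxisomal oxidase of glycolate, went from 1489 ± 30.5 to 381 ± 83.9 (-1.99 ± 0.12), Aadat, an aminotransferase of lysine breakdown, from 383 ± 59.9 to 131 ± 16.2 (-1.54 ± 0.12), and Cyp2c40, an arachidonate-metabolising P450, from 316 ± 68.3 to 54.4 ± 13 (-2.51 ± 0.18).

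Many abundant genes held their level on the authors' scale. Of 11111 genes tested, 1981 averaged at least 100 counts and were not called. Among these, 1735 had a 95% interval of the difference within 0.5 either way on the log2 scale. That count rests on the authors' factors, since equal-total scaling moved the median of all genes up by 0.32. The narrowest intervals belonged to housekeeping genes: Tsn, an RNA-binding protein, had -0.04 ± 0.07 (interval -0.18 to 0.10), Ptp4a2, a phosphatase, -0.07 ± 0.07 (-0.21 to 0.07), and Ube2d3, a ubiquitin carrier, -0.09 ± 0.07 (-0.23 to 0.05). With equal-total scaling each of these was 0.24 to 0.28 and passed the test as a rise, so their constancy is relative to the authors' factors. Stat3, the factor that carries interleukin 6 signals and picked after its values were seen, was at 895, 814, 841 and 846 in the ligated mice and 855, 779, 974 and 792 in the sham mice (0.00 ± 0.08), and passed the test as a rise with equal-total scaling (0.33) and after quantile normalization (0.31).

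Of called genes with a mean of at least 50 counts in the ligated mice, 8 were taken for the widest spread among those mice on the log2 scale. Apart from Ubd and Gbp2 they were Cyp4a12a, a male-pattern P450 (207, 217, 73.8 and 49.6 in the 4 ligated mice), Cxcl2 (98.6, 21.4, 63.8 and 28.2), Zbp1, a sensor of nucleic acids (113, 71.2, 28.9 and 27.5), Gabrp (63.5, 19.3, 76.8 and 88.5), Acta2 and Sult1e1. BDL7 replicate 1 was highest for Ubd, Zbp1 and Gbp2, and replicate 2 lowest for Gabrp and Acta2. The ligated and sham mice did not overlap for any of these 8 genes.

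**Figure D4:**
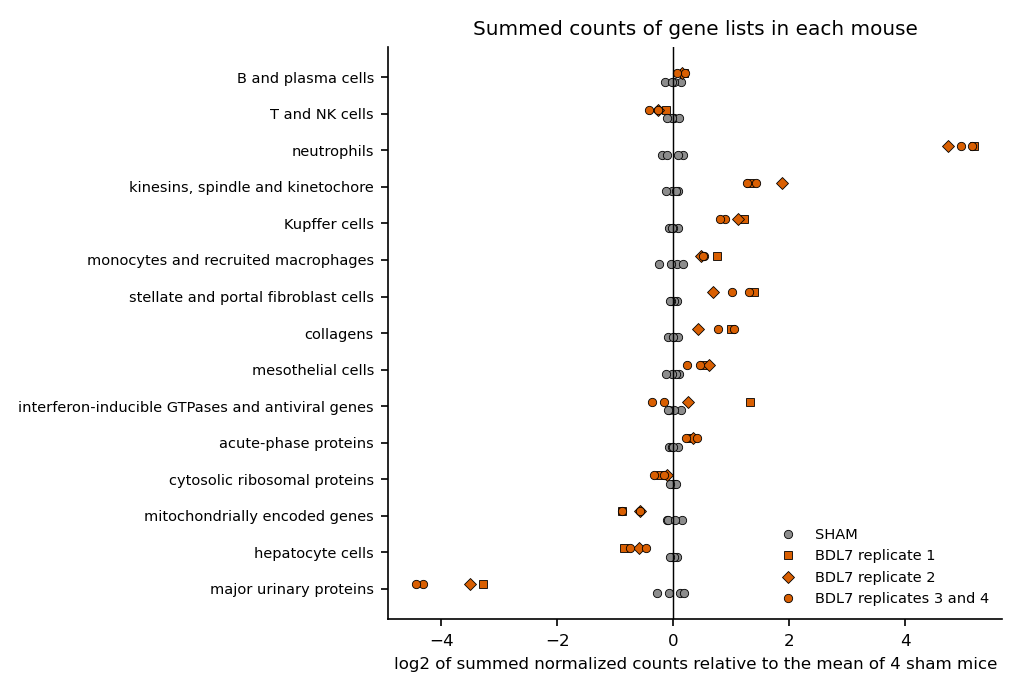
Summed normalized counts of marker lists and families in each mouse, as log2 of the ratio to the mean of the 4 sham mice (0 line); grey circles are sham mice and orange symbols ligated mice, with BDL7 replicate 1 a square and replicate 2 a diamond. Ligated mice lie above the sham mice for neutrophil, Kupffer cell and spindle genes and below them for hepatocyte, mitochondrial and Mup genes, while interferon genes overlap.

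The effect of ligation was set against that of another duct injury at the same day. DDC is known to cause porphyrin plugs in small ducts without surgery, and its effect was taken against its own diet control. The difference of the effects, (BDL7 minus SHAM) minus (DDC7 minus CTLD), passed the test in 1615 of 11111 genes (14.5%): 701 were higher under ligation (6.31%) and 914 lower (8.23%). By more than 1 on the log2 scale 1.98% of genes were higher and 1.48% lower. Of 26 acute-phase genes 13 were higher under ligation and 1 lower. Orm2 was at 1406 ± 144 in BDL7 and 61.6 ± 11.8 in SHAM, against 151 ± 19.5 in DDC7 and 108 ± 27.5 in CTLD (difference 3.99 ± 0.22, adjusted p = 1.21e-09). Saa3 and Saa2 differed by 2.76 ± 0.64, adjusted p = 0.0123, and by 2.32 ± 0.31, adjusted p = 0.00044. Prtn3 differed by 2.86 ± 0.84, adjusted p = 0.0246; that adjusted p was 0.0648 without BDL7 replicate 2. In a fit to all 36 libraries Saa2, Saa3, Prtn3 and Mmp12 had adjusted p from 0.112 to 0.337. Among collagens 8 of 20 were higher under ligation and 1 lower, but only 4 were higher without BDL7 replicate 1 or without BDL7 replicate 4, and 5 without BDL7 replicate 3, SHAM replicate 3 or SHAM replicate 4. Among folding and secretion genes of the endoplasmic reticulum 12 of 35 were higher and 0 lower. Higher here is relative to the DDC effect, since in BDL7 against SHAM itself 0 of these 35 rose and 12 fell.

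Other genes were lower under ligation than under DDC. Single genes named for this contrast, here and above, had to be called in the ligation comparison as well. Larger differences in genes outside that choice are therefore not shown. Defb1, an epithelial defensin, was at 69.5 ± 12 in BDL7 and 283 ± 19.2 in DDC7 (-3.27 ± 0.30, adjusted p = 5.35e-07). Mmp12 was at 69 ± 24.7 and 248 ± 30 (-2.15 ± 0.48, adjusted p = 0.00435). Angptl4, which inhibits lipoprotein lipase, fell to 24.5 ± 10.7 in BDL7 from 199 ± 66.1 in SHAM, and was 112 ± 19.8 in DDC7 and 165 ± 79.4 in CTLD (-2.61 ± 0.61, adjusted p = 0.0134). Nlrp12, a damper of inflammation, differed by -2.17 ± 0.43, adjusted p = 0.00449 and Mup6 by -2.64 ± 0.49, adjusted p = 0.00373. Mup6 was lower under DDC too, at 429 ± 126 in CTLD and 48.1 ± 16.6 in DDC7, and was at 8.14 ± 4.38 in BDL7. Its reads may be shared with other Mup copies. Among the 22 Mup genes 0 were higher and 2 lower under ligation than under DDC. Leaving out each BDL7 and SHAM mouse in turn gave 1 to 4 lower. Of the P450 genes 2 were higher and 10 lower under ligation, and of the UDP-glucuronosyltransferases 0 and 9. Of 35 lysosomal genes 0 were higher and 8 lower (5 lower without SHAM replicate 3). Lower is again relative to the DDC effect, since in BDL7 against SHAM itself 21 of these 35 rose and 2 fell.

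**Figure D5:**
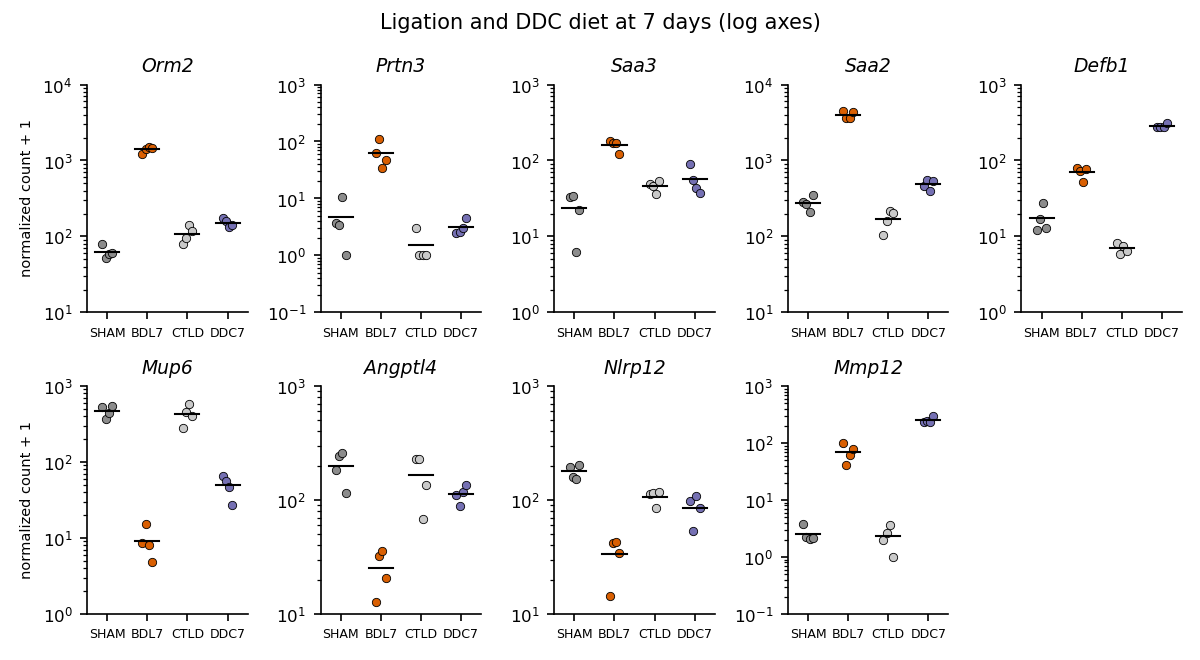
Normalized counts (log axis, count + 1) of 9 genes with large differences between the ligation effect and the DDC effect, for each mouse of SHAM, BDL7, CTLD and DDC7, with the group mean as a bar. Orm2 steps up after ligation and less so under DDC, as does Saa2, and Defb1 and Mmp12 step up more under DDC.

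The same surgery was also sampled at 28 days. BDL28 against BDL7 passed the test in 3033 genes (27.3%), 1330 higher at 28 days (12%) and 1703 lower (15.3%). By more than 1 on the log2 scale 2.1% of genes were higher and 5.94% lower. Leaving out BDL28 replicate 1, 2 or 3 changed these counts to 1958 and 2348, 866 and 1160, and 856 and 1155. Of 47 interferon genes 42 were lower at 28 days (35 without BDL7 replicate 1), and of 35 spindle genes 28, whereas 76 of 80 cytosolic ribosomal protein genes were higher. The filter had used only the BDL7 and SHAM mice. A gene low in sham mice could enter by being high in BDL7, which favours a lower value at 28 days. Of the interferon genes 12, and of the spindle genes 23, were under 10 counts in at least 1 sham mouse. The filter bears on the shares over all genes too. Mup genes were lower still at 28 days: Mup13 was at 12553 ± 1759.8 in SHAM, 649 ± 222 in BDL7 and 13.9 ± 17.2 in BDL28 (-6.88 ± 1.14, adjusted p = 0.00303), with Mup10, Mup2, Mup22 and Mup16 moving the same way by -6.60, -6.25, -5.76 and -5.36. Other genes rose further. Lrtm2, a membrane protein with leucine-rich repeats, was at 0.263 ± 0.526, 37.4 ± 10.2 and 261 ± 91 (2.72 ± 0.33, adjusted p = 0.000171), Slc22a26 rose further by 2.34 ± 0.43, adjusted p = 0.00195 and Hspa2 by 2.20 ± 0.39, adjusted p = 0.00183. Cyp2c37 was at 853 ± 85.2, 190.2 ± 56.8 and 888 ± 151 (2.26 ± 0.20, adjusted p = 3.02e-05), and Nlrp12 at 177 ± 24.6, 32.4 ± 13.2 and 159 ± 72.4 (2.26 ± 0.39, adjusted p = 0.00243), so that both were again near the level of the sham mice.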

How the data were processed

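Livers of 36 mice were profiled with a 3' kit and molecular tags, per the labels' protocols. As software the submitters' processing notes list STAR 2.7.9a, UMI-tools 1.1.1, DESeq2, RSEM 1.3.1 and Trim Galore, with GRCm39 as the build, with settings not given in the sources used here. Values as deposited are a signal that the authors scaled library by library: each of the 8 libraries held only whole multiples of its own step, within 0.001, so read numbers could be recovered. Symbols came from GENCODE M21 for 29121 of 29546 IDs. Promoters are those of RefSeq for GRCm38.p6, matched by symbol for 8460 genes, with the first listed start of each.

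Differences were tested with limma 3.58.1 (R 4.3.3; trend and robust options, 2-sided) on log2(value + 1), and p-values were adjusted by Benjamini-Hochberg over 11111 genes. The ligation comparison used 8 libraries, the comparison with DDC 16 and that between days 12. Each tested the genes that passed the filter in the 8 BDL7 and SHAM libraries. Groups came from the sample descriptions. Alternatives were pseudocounts of 0.5 and 5, other filters and scalings, edgeR 4.0.16 and DESeq2 1.42.0 on recovered reads, a fit to all 36 libraries, mice left out in turn, and a block on replicate number. On simulated data the ligation test over 11111 genes recovered 85% of 2-fold and 97% of 4-fold changes, and 13 of 195 calls fell on genes left unchanged.

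The comparison, the gene lists and the tests were chosen with earlier results of these data known, and 4 lists were corrected after values were seen. The rule for named genes took the 15 highest and 15 lowest differences whose groups did not overlap (higher mean at least 50) and the 10 largest rises and falls of the mean. It took up to 4 called members per list with the lowest adjusted p (higher mean at least 20). It also took the 10 narrowest intervals among uncalled genes averaging at least 100, and the 8 most variable called genes in BDL7 with a mean of at least 50. In each of the other contrasts it took the 5 highest and 5 lowest called genes. These had to be called in the ligation comparison as well and to average at least 50 in some group. Predicted genes and pseudogenes were left out, and some genes taken are not reported here.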

Additional observations from a re-analysis of the deposited data

Results flagged for a closer look

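Single mice stood far from the other 3 of their group, on the log2 scale, in 27 of 402 groups searched (201 genes named in the report, each in BDL7 and SHAM). Dixon's test at its 95% critical value gives such a mouse by chance in about 1 of 20 groups. Among the ligated mice the lowest value stood apart for Abcg1 (60.8, replicate 3), Hmox1 (234, replicate 4), Sox4 (70.2, replicate 2), Itgam (24.4, replicate 2), Cxcl5 (64.1, replicate 2), Gpnmb (75.3, replicate 2) and Fgf1 (56, replicate 1) normalized counts, and the highest for Hsd3b5 (1.02, replicate 2), Tlr2 (56, replicate 1), Fcer1g (180.5, replicate 1), Birc5 (155, replicate 2), Casp12 (159.6, replicate 1), Cyp2c40 (73.8, replicate 3) and Hspa2 (39.9, replicate 3). Among the sham mice the highest stood apart for Slco1a1 (1591, replicate 3), Trf (13090.0, replicate 1), Sprr1a (1.05, replicate 3), Rdh16f1 (15.1, replicate 1), Vcan (1.05, replicate 3), Timp1 (1.38, replicate 1), Mmp12 (2.75, replicate 1) and Lrtm2 (1.05, replicate 3), and the lowest for Sult2a8 (1270.0, replicate 2), Clu (2009, replicate 2), Dnaja1 (1299, replicate 3), Krt8 (283, replicate 4) and Bcl2 (13, replicate 4).

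The effect of ligation differed from that of DDC, by the limma interaction, for Orm2 (3.99), Prtn3 (2.86), Saa3 (2.76), Saa2 (2.32), Defb1 (-3.27), Mup6 (-2.64), Angptl4 (-2.61), Nlrp12 (-2.17) and Mmp12 (-2.15) on the log2 scale. The day 28 values differed from those of day 7 for Lrtm2 (2.72), Slc22a26 (2.34), Nlrp12 (2.26), Cyp2c37 (2.26), Hspa2 (2.20), Mup13 (-6.88), Mup10 (-6.60), Mup2 (-6.25), Mup22 (-5.76) and Mup16 (-5.36). The counts and errors of these genes are given above.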

How the results depend on the processing

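The ligation comparison called 2345 genes higher and 2483 lower. Leaving out each mouse in turn gave 2123 to 2235 higher and 2214 to 2377 lower. With equal-total scaling 4758 were higher and 1044 lower. With a filter of at least 50 counts 1312 were higher, but that fit tested only 6887 genes against 11111 in the main one. The counts of the other alternatives stayed within 1.5 times. The replicate numbers did not pair the mice: residuals of same-numbered BDL7 and SHAM mice correlated between -0.03 and 0.06. With a replicate block 2303 genes were higher and 2384 lower. For the difference from DDC the count of lower genes was 598 in a fit to all 36 libraries, against 914. Leaving out each BDL7 and SHAM mouse in turn (no DDC7 or CTLD mouse was left out) gave 562 to 641 higher and 712 to 860 lower. For BDL28 against BDL7, leaving out each BDL28 and BDL7 mouse in turn gave 856 to 1958 higher, against 1330, and 1152 to 2348 lower, against 1703; the number higher was 866 without BDL28 replicate 2 and 856 without BDL28 replicate 3. Same-numbered BDL7 and BDL28 mice correlated between -0.07 and 0.18; replicates 1, 2 and 3 matched their own number best and replicate 4 did not, so the numbers were not taken to pair them. With a replicate block 1369 were higher and 1725 lower.

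Of the 201 genes named, 4 turned direction. After quantile normalization B2m at 0.30, Tsn at 0.23, Ptp4a2 at 0.25 and Ube2d3 at 0.33. With equal-total scaling Tsn was at 0.28, Ptp4a2 at 0.25 and Ube2d3 at 0.24. The causes were not tested. Nothing in the labels says how the 4 mice of a group were housed or processed, so p-values measure the spread between these mice. At this depth 1 read was worth 0.763 to 1.38 normalized counts, which limits genes near 0 in sham mice.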
